A study of Mus musculus with 28 samples.

Results

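The guidance genes of the mouse mammary gland described here are the semaphorins, Slits, netrins and ephrins, together with their plexin, neuropilin, Robo, netrin and Eph receptors. They were picked by gene symbol alone from the gene-level count table, without regard to expression. The rule found 68 of 50600 genes, among 21764 that the annotation calls protein-coding. These were 33 ligands (20 semaphorins, 3 Slits, 2 netrins and 8 ephrins) and 35 receptors (9 plexins, 2 neuropilins, 4 Robos, 6 netrin receptors and 14 Eph receptors). *Ntn3* was not analysed here.

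These families were first described as cues that steer growing axons, and most are now known in many tissues as regulators of adhesion, migration and branching. Class 3 semaphorins are secreted and mostly bind a neuropilin paired with a plexin, whereas the semaphorins of classes 4 to 7 are bound to the membrane or to a lipid anchor and mostly bind plexins directly. Slits are secreted and bind Robo receptors. Netrins are secreted, laminin-related proteins that bind Dcc, neogenin (*Neo1*) and the Unc5 receptors. Ephrins are held on the cell surface and signal to Eph receptor tyrosine kinases on a neighbouring cell, and back into the cell that carries them. In the mammary gland, netrin-1 with neogenin and Slit with Robo are known for holding the basal and luminal layers of the end bud and duct together.

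RNA was sequenced from cells of adult female C57BL/6 mice, 10 to 12 weeks old by the study's methods for this model, carrying PdgfrαCre and the R26mTmG reporter. In this constitutive model a cell that ever expressed Cre, and all its descendants, is GFP+, and every other cell keeps tdTomato. GFP+ therefore records the history of the *Pdgfra* promoter and not its present activity, and all 8 groups carry both alleles. Of 7 intact mice, 4 were untreated and 3 received 17β-estradiol and progesterone (E+P), which the methods describe as a 14-day pellet with 0.14 mg and 14 mg of the hormones. Each mouse gave 4 sorted populations after exclusion of CD45, CD31 and Ter119 positive cells: GFP+ stroma, tdTomato+ stroma, GFP+ luminal cells and tdTomato+ luminal cells, separated by CD49f and EpCAM. This makes 28 libraries, with 4 untreated and 3 E+P libraries per population. Basal epithelial cells were not among the populations sequenced. Within a treatment the replicate numbers name mice. The p-values measure the spread between the libraries of a group, which come from different mice. The main fits held no block for the mouse, so populations from the same mouse were treated as independent there. The main p-values of the population comparisons therefore do not measure how a paired difference varies between mice.

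Library totals ran from 8623383 to 24583803 counts, so that 3 counts corresponded to 0.116 to 0.302 CPM (counts scaled to the library size). Within a group, the log2 CPM of any pair of libraries correlated at 0.919 to 0.984. The luminal marker list (8 genes) summed to group means of 5249 to 7811 CPM in luminal libraries, while *Krt5* did not exceed 1.7 CPM in any library. The basal list as a whole (5 genes) had group means of 12.3 to 127 CPM in luminal cells, mostly *Oxtr*, *Trp63* and *Krt17*. The fibroblast list (6 genes) summed to 26630 and 32680 CPM in untreated and E+P GFP+ stroma and to 2418 and 1130 CPM in tdTomato+ stroma. The tdTomato+ stroma held instead the pericyte and smooth muscle list (7 genes, 7487 and 7104 CPM against 719 and 778 in GFP+ stroma) and the skeletal muscle list (7 genes, 1374 to 13060 CPM by library against at most 2.27 in GFP+ stroma), and so is a mixture of other mesenchymal cells. Endothelial markers (6 genes) were low in both stromal populations (group means 98.5 to 224 CPM). The immune list was at most 39.4 CPM in any library. In untreated tdTomato+ stroma the luminal list ranged from 20.13 to 518.3 CPM, highest in replicates 2 and 3.

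Of the 68 members, 55 reached a mean of 5 CPM in at least 1 group, 62 passed the low-count filter of at least 1 of the fits and 6 (*Dcc*, *Epha5*, *Epha6*, *Epha8*, *Epha10* and *Robo3*) passed none, the highest single value among them being 2.94 CPM for *Epha5*. *Dcc*, the classical netrin receptor of neurons, was therefore not detectable above this level in any library.

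Levels of different genes are set side by side here as CPM per kilobase of exon. The highest Slit level belonged to *Slit3*, at 155 ± 18 CPM per kb (mean ± SD, n = 7 mice) in GFP+ stroma and 35.5 ± 7.1 in tdTomato+ stroma, against a luminal mean of 0.118. *Slit2* came next in the stroma, at 11.2 ± 1.6 and 1.38 ± 0.55 CPM per kb. The main Robo was *Robo1*, at 4.79 ± 0.61 and 3.88 ± 0.89 CPM per kb in the GFP+ and tdTomato+ stroma and 0.894 ± 0.27 and 1.67 ± 0.97 in the GFP+ and tdTomato+ luminal cells. Among the populations sequenced, *Slit2* and *Slit3* were thus stromal, whereas the most abundant Robo was found in both stromal and luminal cells. Levels in basal epithelial cells are not known from these data. *Slit1* stayed low in every population.

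Among netrins and their receptors the order was different. *Ntn1* had its highest level, 32.2 ± 14 CPM per kb, in GFP+ luminal cells, followed by 13.3 ± 3.8 in GFP+ stroma, 6.88 ± 5.1 in tdTomato+ luminal cells and 3.65 ± 2.1 in tdTomato+ stroma. The last pair lay within each other's spread. *Ntn4*, a netrin that also binds laminin, was at 10.9 ± 2.2, 13.3 ± 3.7, 9.91 ± 12 and 3.27 ± 2.4 CPM per kb in GFP+ stroma, tdTomato+ stroma, GFP+ luminal and tdTomato+ luminal cells, and the first 3 values overlapped. The main netrin receptor was *Neo1* in all 4 populations by the population means, at 24.6 ± 4.7 CPM per kb in GFP+ stroma and 4.86 ± 1.0 to 6.71 ± 1.3 in the other 3. *Unc5b* came close to it in tdTomato+ stroma (4.77 ± 1.3 against 5.82 ± 1.8 CPM per kb). In tdTomato+ luminal cells the order depended on treatment: *Unc5b* was at 1.64 ± 0.94 and *Neo1* at 5.55 ± 0.79 in untreated mice (n = 4), and at 8.10 ± 4.8 and 3.93 ± 0.21 after E+P (n = 3).

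**Figure D1:**
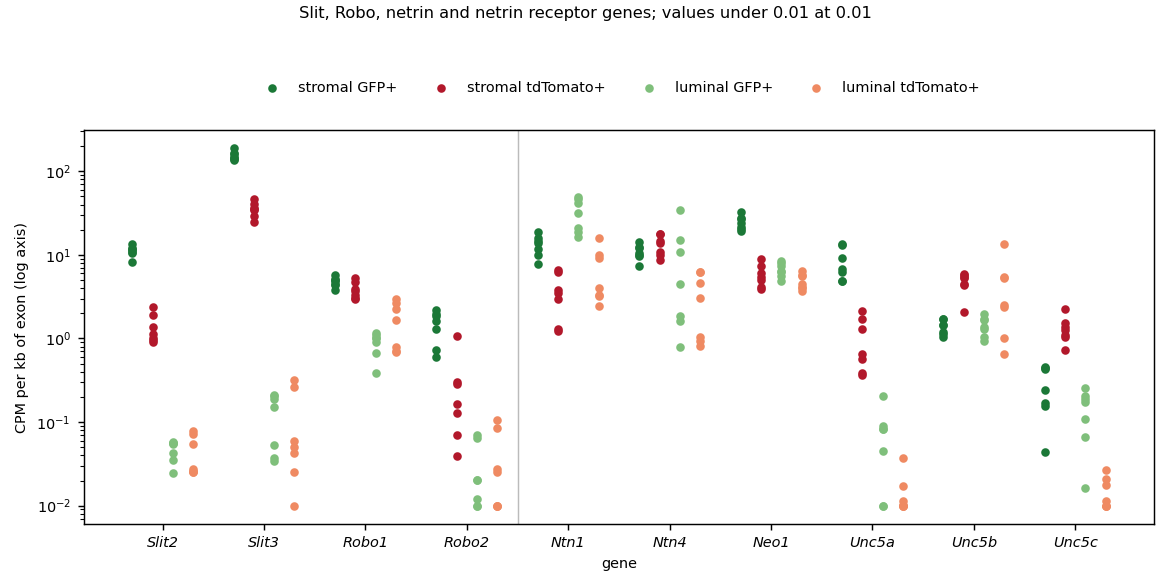
Level of the Slits, Robos, netrins and netrin receptors in each of the 4 sorted populations, in CPM per kilobase of exon on a log axis; each point is 1 of 7 mice and values under 0.01 are drawn at 0.01. *Slit3* and *Slit2* sit far higher in both stromal populations than in both luminal ones, whereas *Robo1*, *Ntn1*, *Ntn4*, *Neo1* and *Unc5b* have points well above the floor in all 4.

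In the remaining families, the member with the highest level was *Sema4c* among semaphorins in both lineages (46.1 CPM per kb as the stromal mean, with 84 ± 20 in tdTomato+ stroma, and 20 as the luminal mean), although *Sema3c* led in GFP+ stroma (50.7 ± 22). It was *Plxna1* in stroma (31.7) and *Plxnb2* in luminal cells (39.2) among plexins, and *Nrp1* among neuropilins (17.0 in stroma and 0.333 in luminal cells). The leading ephrins were *Efnb1* in stroma (9.03) and *Efna1* in luminal cells (19.0), and the leading Eph receptors were *Ephb4* in stroma (6.69) and *Epha2* in luminal cells (13.2). By these lineage means the leading member differed between stroma and luminal cells in 4 of the 9 families (plexins, netrins, ephrins and Eph receptors). The lineage means pool unlike populations. In tdTomato+ stroma *Plxnd1* (41.5 ± 9.4 CPM per kb) exceeded *Plxna1* (21.2 ± 2.1). The highest Eph receptor was *Epha3* in GFP+ stroma (10 ± 2.6), *Epha2* in tdTomato+ stroma (12.7 ± 4.1) and *Ephb4* in GFP+ luminal cells (14.8 ± 2.0, within the spread of *Epha2* at 13.3 ± 6.4).

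**Figure D2:**
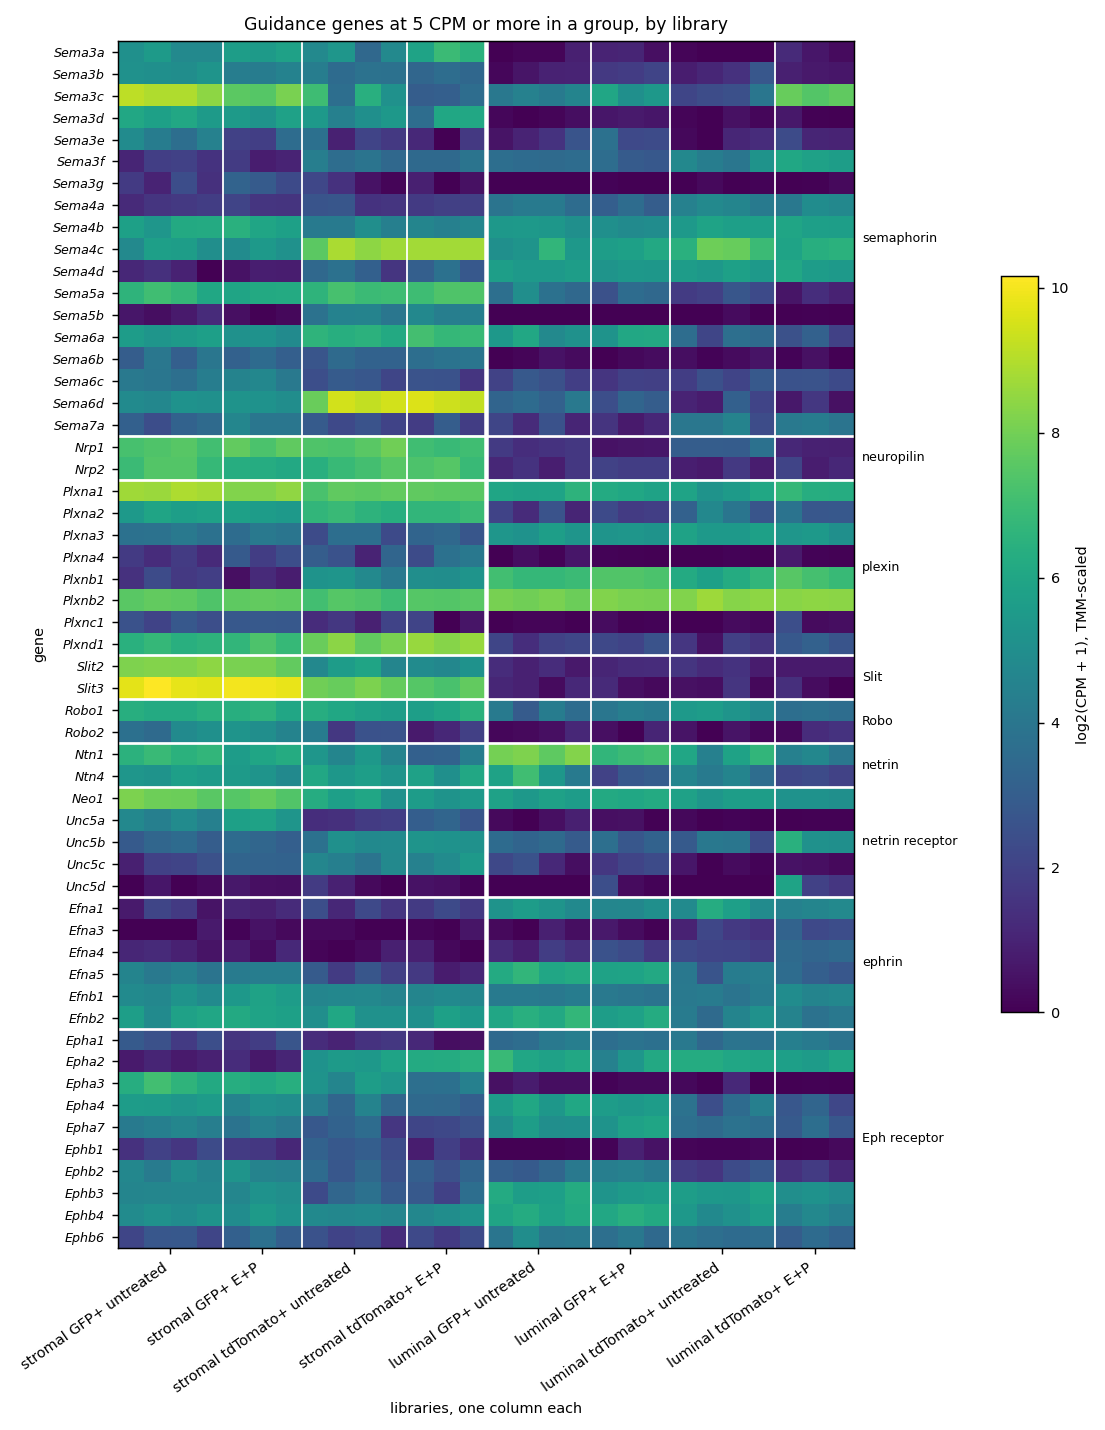
Heat map of log2(CPM + 1) for the 55 members with a mean of at least 5 CPM in a group (vertical) in the 28 libraries ordered by population and treatment (horizontal). *Slit3*, *Nrp1*, *Nrp2* and *Plxnd1* are bright in the 14 stromal libraries and dark in the 14 luminal ones, and *Sema4d* shows the opposite. *Plxnb1* is bright in luminal libraries, dark in GFP+ stroma and in between in tdTomato+ stroma.

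The first comparison asked how the stroma differed from the luminal epithelium. Over 7 mice and both colours, *Sema3a*, *Sema3d*, both neuropilins, *Slit2*, *Slit3* and *Epha3* were much higher in stroma, and *Plxnb1*, *Sema4d* and *Efna1* were much higher in luminal cells. With adjusted p below 0.01 in edgeR's quasi-likelihood test, adjusted by Benjamini-Hochberg over all 19569 genes tested, 31 of the 62 members tested were higher in stroma and 17 were lower. Over all genes tested 63.5% were called, 33.0% higher and 30.5% lower. The median log2 difference was 1.01 over the members tested, against 0.02 over all genes. In bulk samples such as these, fewer cells of a type and less RNA per cell cannot be told apart. By family, 12 of 20 semaphorins were higher and 3 lower, 5 of 9 plexins higher and 3 lower, both neuropilins higher, 2 of 3 Slits higher, 2 of 3 Robos tested higher, and 3 of 5 netrin receptors tested higher. Of 10 Eph receptors tested 3 were higher and 6 lower, and of 8 ephrins 1 was higher and 4 lower.

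The ligands with the largest stromal differences were *Slit3*, *Sema3d*, *Sema3a*, *Sema5b* and *Slit2*. *Slit3* (chromosome 11, 35121224 to 35708507 in GRCm38) had a lowest, median and highest value of 152, 555 and 1140 CPM in the 14 stromal libraries, and of 0, 0.342 and 1.95 CPM in the 14 luminal libraries. Its log2 difference was 9.47 ± 0.38 (SE; adjusted p = 5.2e-16). *Slit2* ran from 23.3 over 134 to 340 CPM in stroma and from 0.629 over 1.24 to 1.96 in luminal cells (6.48 ± 0.18, adjusted p = 4.9e-20). For both Slits every stromal library lay above every luminal one. *Sema3d* (11.4, 45.4 and 67.1 CPM against 0, 0.122 and 0.647) and *Sema3a* (9.7, 42.4 and 120 against 0, 0.176 and 1.28), secreted semaphorins that repel many axons, differed by 7.76 ± 0.35 and 7.42 ± 0.35 on the log2 scale. *Sema5b*, a transmembrane semaphorin, ran from 0.0528 over 7.3 to 25.9 CPM in stroma and from 0 to 0.217 in luminal cells, so the ranges overlapped (7.31 ± 0.58). Several luminal libraries held no read of these genes, and the log2 differences there depend on the prior count.

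Receptors higher in stroma included both neuropilins, several plexins and *Robo1*, which belong to the receptor families of semaphorins and Slits. *Unc5a* and *Epha3*, also given here, bind netrins and ephrins and are not receptors of the ligands above. *Nrp1*, the co-receptor of class 3 semaphorins and of VEGF, measured 117, 158 and 247 CPM (lowest, median and highest) in stroma and 0.408, 1.67 and 12.8 in luminal cells, a log2 difference of 6.60 ± 0.13 (adjusted p = 6.8e-23). *Nrp2* measured 68.3, 119 and 184 CPM against 0.67, 1.51 and 3.21 (6.22 ± 0.22). Neither gene had overlapping ranges. *Plxna4*, which pairs with neuropilins, was low in both (median 4.18 and 0.0555 CPM, 5.85 ± 0.50), and *Plxnd1*, the receptor of *Sema3e* and, with neuropilins, of *Sema3c*, measured 84.8, 183 and 383 CPM against 0.365, 3.18 and 7.95 (5.75 ± 0.18). *Unc5a*, a netrin dependence receptor, measured 1.52, 14.5 and 56.8 CPM against 0, 0.06 and 0.865 (6.55 ± 0.30). *Epha3* measured 12.1, 59.7 and 135 CPM against 0, 0.158 and 1.23 (8.28 ± 0.35, adjusted p = 2.8e-16). *Robo1* differed less, at 49.1, 73.4 and 94.1 CPM against 6.45, 16.8 and 48.6 (1.99 ± 0.13), still without overlap. For each gene of this paragraph the stromal value was above the luminal one in all 7 mice.

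The luminal side was led by *Plxnb1*, its ligand *Sema4d* and *Efna1*. *Plxnb1*, the receptor of *Sema4d*, measured 53.3, 117 and 182 CPM in luminal libraries and 0.325, 10.1 and 37.8 in stromal ones, a log2 difference of -4.15 ± 0.16 for stroma minus luminal (adjusted p = 1.7e-17). *Sema4d* itself measured 37.6, 44.2 and 67.7 CPM against 0, 1.79 and 12.8 (-4.15 ± 0.24). This ligand and its receptor were thus both luminal, with no overlap in either. *Efna1*, a ligand of EphA receptors, measured 21.3, 28.6 and 76.4 CPM against 0.459, 2.17 and 4.47 (-4.02 ± 0.24), and *Epha1* 9.92, 13.6 and 20.1 against 0.297, 2.00 and 6.29 (-2.84 ± 0.21). The *Epha1* gene shares 236 exonic bases, 6.01% of its exons, with the far more abundant *Zyx*, and its counts are uncertain to that extent. *Epha2* was lower in stroma by 2.99 ± 0.16 in the fit, but its stromal values (0.581, 18.5 and 85.4 CPM) overlapped the luminal ones (21.2, 62.0 and 118) and 6 of 7 mice showed the direction. *Sema4a* (-2.63 ± 0.18) and *Plxna3* (-1.98 ± 0.14) were luminal without overlap. *Efna5* (-2.03 ± 0.19), *Sema3f* (-2.01 ± 0.18) and *Ephb3* (-1.66 ± 0.16) were luminal with overlapping libraries.

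Some abundant members differed little. *Plxnb2* was lower in stroma by 0.75 ± 0.06 and *Ephb4* by 0.51 ± 0.09 on the log2 scale, while *Efnb1* was higher by 0.76 ± 0.07 and *Neo1* by 1.05 ± 0.09. *Ntn1* was lower in stroma by 1.03 ± 0.18 (adjusted p = 2.5e-05, lower in 7 of 7 mice) and *Ntn4* higher by 1.89 ± 0.23 (6 of 7 mice). For *Sema4c* the difference of 0.61 ± 0.19 (adjusted p = 0.0062) fell to 0.33 (adjusted p = 0.12) when libraries were scaled by their totals only. It also missed the threshold without untreated replicate 2 or 4 or without any 1 of the E+P replicates (adjusted p = 0.016 to 0.039). *Epha4* (-0.02 ± 0.18), *Unc5b* (0.19 ± 0.20) and *Sema4b* (-0.19 ± 0.10) did not pass the test.

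**Figure D3:**
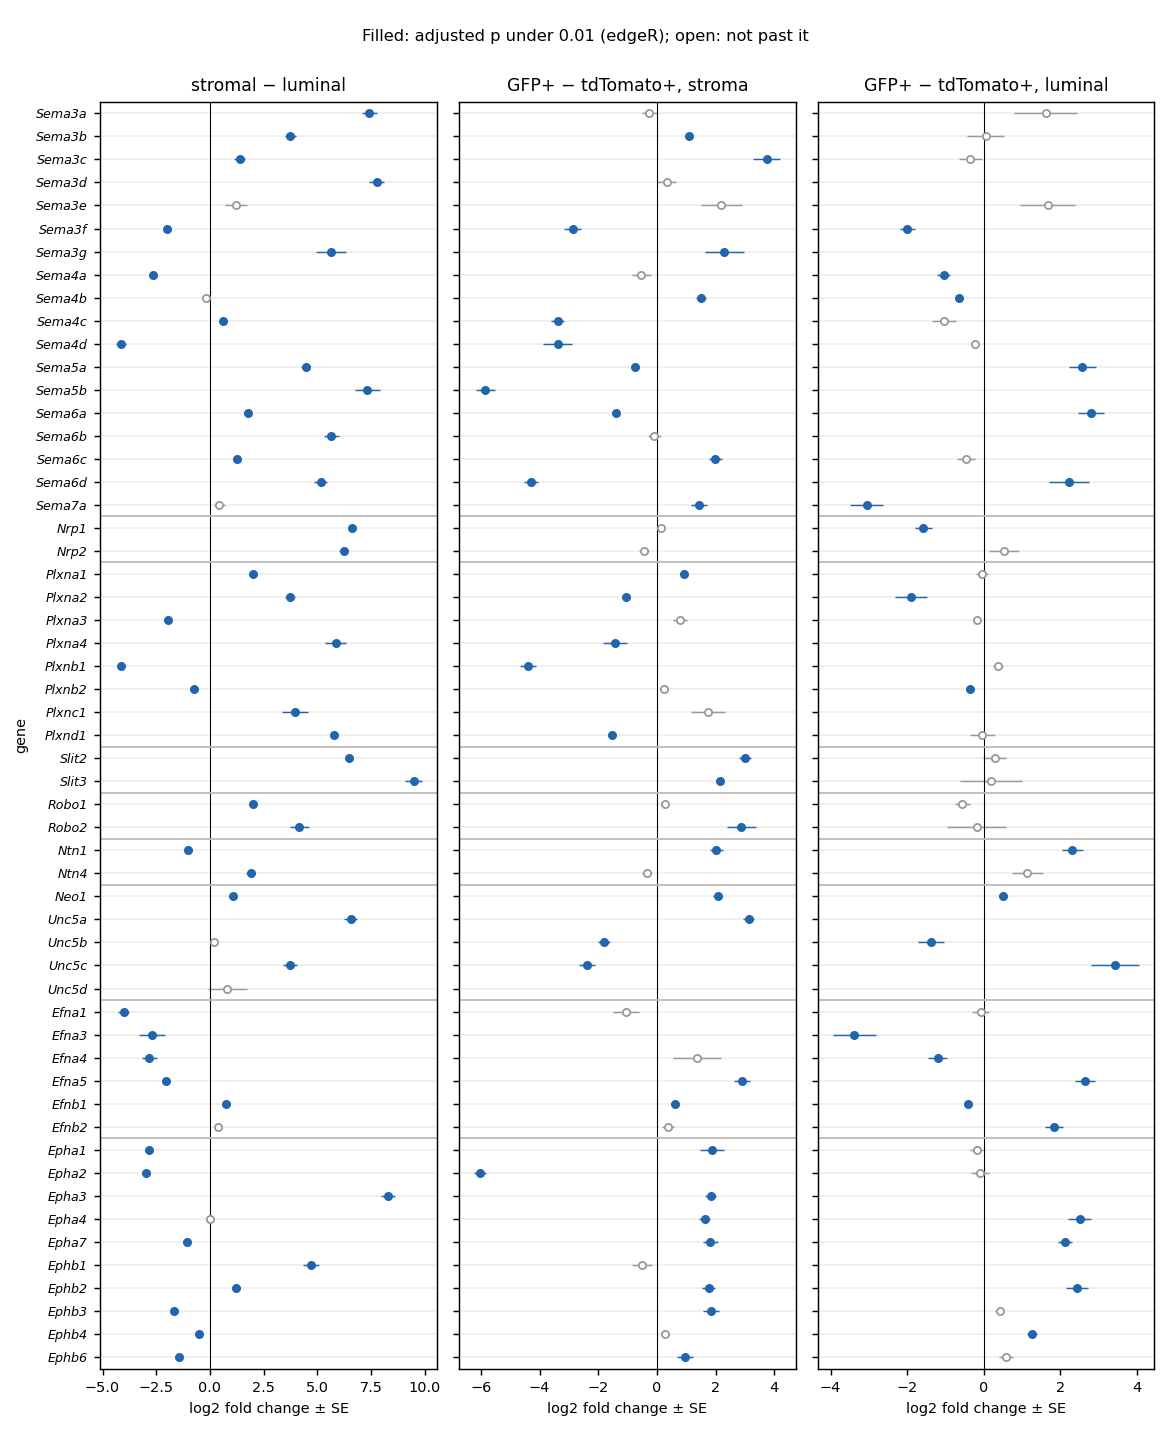
Log2 difference ± SE of 55 members in 3 panels: stroma minus luminal, GFP+ minus tdTomato+ stroma, and GFP+ minus tdTomato+ luminal cells; filled points have an adjusted p below 0.01. *Slit3*, *Epha3*, *Sema3d* and *Sema3a* lie furthest to the stromal side of the first panel, *Epha2* and *Sema5b* furthest to the tdTomato+ side of the second, and *Sema6a* and *Sema6d* change sides between the 2 panels of GFP+ against tdTomato+ cells.

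Within the stroma, the comparison of GFP+ with tdTomato+ cells asked how cells with a history of *Pdgfra* promoter activity differ from the rest. The GFP+ stroma was higher for *Sema3c*, both abundant Slits, *Ntn1* with its receptors *Neo1* and *Unc5a*, and many Eph receptors, and the tdTomato+ stroma was higher for *Epha2*, *Sema5b*, *Sema6d*, *Sema4c* and *Plxnb1*. Of 60 members tested 22 were higher in GFP+ cells and 17 were lower, 65% in all, against 42.0% of 17783 genes tested (20.6% higher, 21.3% lower). By family, 7 of 10 Eph receptors tested were higher and 1 lower, 6 of 20 semaphorins higher and 8 lower, and 1 of 9 plexins higher and 5 lower. Of 4 netrin receptors tested 2 were higher and 2 lower. Both *Slit2* and *Slit3* were higher, and neither neuropilin was called. The markers given above move with this comparison: 6 of 6 fibroblast markers were higher in GFP+ stroma, and 6 of 7 pericyte and smooth muscle and 7 of 7 skeletal muscle markers were lower. Lower too were 4 of 6 endothelial markers (among them *Pecam1*, 0.5283 to 1.551 CPM against 6.509 to 53.66), 3 of 5 immune markers tested and, of 4 basal markers tested, *Trp63* and *Oxtr*, while the endothelial gene *Tek* was higher. Their part in the results for the guidance genes was not tested.

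*Sema3c*, which signals through neuropilins and plexin D1, measured 179, 343 and 567 CPM (lowest, median and highest of 7 mice) in GFP+ stroma and 6.95, 11.7 and 128 in tdTomato+ stroma, a log2 difference of 3.75 ± 0.46 (adjusted p = 2.8e-05). *Slit2* measured 207, 294 and 340 CPM against 23.3, 29.1 and 60.4 (3.01 ± 0.20), and *Slit3* 827, 900 and 1140 against 152, 213 and 283 (2.16 ± 0.11, adjusted p = 4.7e-11). In all 3 genes the lowest GFP+ library lay above the highest tdTomato+ library. Libraries of the 2 populations did not overlap for 29 of the 60 members tested and 26.5% of all genes. *Ntn1* measured 48.2, 87.8 and 118 CPM against 7.77, 22.1 and 41.2 (2.03 ± 0.21). Its receptor *Neo1* measured 166.1, 212 and 282 against 34.1, 47.9 and 76.9 (2.08 ± 0.15), and *Unc5a* 20.1, 28.5 and 56.8 against 1.52, 2.72 and 9.0 (3.13 ± 0.18). A netrin ligand and its receptors *Neo1* and *Unc5a* were thus higher in the same sorted population, again without overlap. The netrin receptors *Unc5b* and *Unc5c* went the other way, as given below. *Efna5* (2.91 ± 0.27), *Sema6c* (2.00 ± 0.22) and *Ephb3* (1.84 ± 0.28) were also higher without overlap. *Robo2* was higher by 2.88 ± 0.50 (adjusted p = 0.00034), in 6 of 7 mice and with overlapping ranges (10.3, 27.7 and 37.7 against 0.664, 2.82 and 18.1 CPM). The Eph receptors *Epha3* (1.83 ± 0.19), *Epha7* (1.81 ± 0.26), *Ephb2* (1.77 ± 0.22) and *Epha4* (1.62 ± 0.19) rose together with *Ephb3* and *Epha1*. *Epha1* missed the threshold without E+P replicate 3 (adjusted p = 0.012).

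On the tdTomato+ side, *Epha2*, a receptor of A-type ephrins, measured 35.5, 58.2 and 85.4 CPM against 0.581, 0.918 and 1.46 in GFP+ stroma, a log2 difference of -6.03 ± 0.20 for GFP+ minus tdTomato+ (adjusted p = 6.1e-13). *Sema5b* measured 13.2, 19.7 and 25.9 CPM against 0.0528, 0.325 and 1.38 (-5.85 ± 0.32). *Plxnb1* measured 16.1, 31.2 and 37.8 CPM against 0.325, 1.74 and 4.03 (-4.38 ± 0.27). Each of these genes stayed under 5 CPM in every GFP+ stromal library. *Sema6d*, a ligand of class A plexins, measured 229, 662 and 782 CPM against 24.9, 32.9 and 36.1 (-4.29 ± 0.24), and *Sema4c*, a ligand of plexin B2, 190, 423 and 463 against 26.7, 33.7 and 51.8 (-3.38 ± 0.22). These were the most abundant semaphorins of tdTomato+ stroma per kilobase. *Sema4d* (-3.39 ± 0.51), *Sema3f* (-2.88 ± 0.30), *Unc5c* (-2.39 ± 0.27), *Unc5b* (-1.81 ± 0.19) and *Plxnd1* (-1.53 ± 0.13) were also lower in GFP+ stroma without overlap. *Plxnb1*, *Sema4d* and *Epha2* are among the members high in luminal cells, and luminal markers varied between the tdTomato+ stromal libraries. A further fit left out both mice that had the most epithelial RNA there, a choice made after seeing the data. In it the differences were -4.44 for *Plxnb1*, -3.47 for *Sema4d* and -6.08 for *Epha2*. It called 40 members, of which 36 were among the 39 of the main fit. Untreated replicate 1, with 75.27 CPM of luminal markers by library totals, stayed in that fit. The part of epithelial RNA in these differences was not tested.

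Several partners of these genes did not pass the test between the stromal populations: *Nrp1* differed by 0.15 ± 0.12, *Nrp2* by -0.44 ± 0.17, *Robo1* by 0.28 ± 0.13, *Ntn4* by -0.34 ± 0.18, *Sema3a* by -0.26 ± 0.26 and *Plxnb2* by 0.24 ± 0.09 on the log2 scale. With the mouse as a block, *Sema3g*, *Plxna4*, *Ephb6* and *Plxnb3* missed the threshold (adjusted p = 0.011 to 0.067), whereas *Plxna3* and *Sema3e* passed it.

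In the luminal cells, the same comparison of GFP+ with tdTomato+ cells found *Epha4*, *Epha7*, *Ephb2*, *Ephb4*, *Efna5*, *Efnb2*, *Ntn1*, *Sema5a* and *Sema6a* higher in GFP+ cells, and *Sema3f*, *Sema7a*, *Nrp1*, *Sema4a* and *Sema4b* higher in tdTomato+ cells. Class 4 semaphorins did not all go 1 way: *Sema4g*, under 7 CPM in every luminal library, was higher in GFP+ cells (1.10 ± 0.30, adjusted p = 0.0070; lost without untreated replicate 1 or 3 or any 1 of the E+P replicates, 0.013 to 0.034), and *Sema4c* and *Sema4d* were not called. Of 51 members tested 13 were higher and 12 lower, 49.0% in all, against 34.7% of 16538 genes tested (15.7% higher, 19.0% lower). Scaling by library totals only gave 16 higher and 9 lower, with the median of all genes moved by 0.14 on the log2 scale. By family, 4 of 8 Eph receptors tested were higher and none lower, 2 of 8 ephrins higher and 3 lower, 4 of 16 semaphorins tested higher and 5 lower, and 2 of 6 plexins tested lower. No Slit or Robo was called. Of 5 basal markers, *Krt14* and *Oxtr* were higher in GFP+ cells. Luminal hormone-sensing markers were lower in GFP+ cells (5 of 5; group means of 858 and 192 CPM in untreated and E+P mice against 4093 and 2367 in tdTomato+ cells) and luminal progenitor markers were higher (4 of 4; 1859 and 1098 CPM against 431.7 and 133.5). Whether these cell types account for any of the differences was not tested.

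*Ntn1* measured 102, 197 and 307 CPM (lowest, median and highest of 7 mice) in GFP+ luminal cells and 15.2, 25.1 and 101 in tdTomato+ luminal cells, with no overlap and a log2 difference of 2.31 ± 0.28 (adjusted p = 3.9e-05). *Efna5* measured 56.5, 68.1 and 103 CPM against 5.30, 11.1 and 19.2 (2.65 ± 0.26). *Efnb2*, the ligand of EphB4, measured 49.5, 69.0 and 105 CPM against 10.4, 17.7 and 34.2 (1.83 ± 0.24), and *Ephb4* itself 55.1, 70.8 and 82.9 against 18.5, 27.3 and 47.9 (1.26 ± 0.13). This ligand and its receptor were higher in the same population, both without overlap. The EphA receptors *Epha4* (40.4, 47.5 and 65.2 CPM against 3.52, 9.02 and 19.9, 2.51 ± 0.30) and *Epha7* (31.1, 35.8 and 61.8 against 5.80, 11.7 and 13.0, 2.12 ± 0.19), which bind A-type ephrins, and *Ephb2* (6.25, 16.4 and 21.3 against 1.14, 2.38 and 5.78, 2.43 ± 0.29) were higher without overlap too. *Sema6a* (26.6, 41.5 and 69.7 CPM against 2.85, 7.95 and 11.9, 2.80 ± 0.34) was the semaphorin with the largest increase in the fit. *Sema5a* (2.58 ± 0.35) and *Sema6d* (2.21 ± 0.52) were higher with overlap, and *Sema6d* missed the threshold without untreated replicate 4 or E+P replicate 1 or 3 (adjusted p = 0.013 to 0.021).

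*Sema3f*, a ligand of neuropilin 2, measured 15.0, 36.4 and 65.4 CPM in tdTomato+ luminal cells against 6.00, 10.9 and 11.7 in GFP+ cells (-2.0 ± 0.20 for GFP+ minus tdTomato+, without overlap). *Sema7a*, a lipid-anchored semaphorin, measured 4.11, 15.2 and 22.4 CPM against 0.647, 1.41 and 4.86 (-3.06 ± 0.42). *Nrp1* was low in both, with a median of 6.65 against 1.51 CPM (-1.58 ± 0.22). *Sema4a* (-1.05 ± 0.17), *Sema4b* (-0.65 ± 0.09) and *Efna4* (-1.21 ± 0.25) were lower in GFP+ cells by smaller amounts. Other calls were lost when single mice were left out. *Unc5b* (-1.38 ± 0.35, adjusted p = 0.0054, lower in 5 of 7 mice) missed the threshold without untreated replicate 2 or 3 or any 1 of the E+P replicates (adjusted p = 0.013 to 0.023), and *Plxna2* (-1.90 ± 0.42) without any 1 of the E+P replicates (0.013 to 0.014). *Efnb1* (-0.41 ± 0.09) missed it without any 1 of the E+P replicates (0.011 to 0.021) and *Plxnb2* (-0.36 ± 0.07) without E+P replicate 2 or 3 (0.012 to 0.016). *Efnb1* and *Plxnb2* also missed it with scaling by library totals (0.031 and 0.028). With the mouse as a block, *Ephb3*, *Sema4c* and *Sema3e* passed the threshold in addition.

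Members called between GFP+ and tdTomato+ cells in both lineages numbered 17, of 39 called in stroma and 25 called in luminal cells. Of these, 10 differed in the same direction (*Efna5*, *Epha4*, *Epha7*, *Ephb2*, *Neo1* and *Ntn1* higher in GFP+ cells, and *Plxna2*, *Sema3f*, *Sema4f* and *Unc5b* lower) and 7 in opposite directions (*Efnb1*, *Sema4b*, *Sema5a*, *Sema6a*, *Sema6d*, *Sema7a* and *Unc5c*). The luminal call of *Sema4f*, under 7 CPM throughout, was lost without untreated replicate 1 or any 1 of the E+P replicates (adjusted p = 0.016 to 0.022). *Sema6d* differed by -4.29 in stroma and 2.21 in luminal cells, and *Sema6a* by -1.41 and 2.80. The difference between the lineages was not itself tested.

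The response to E+P was asked in each population separately. It was widest in tdTomato+ luminal cells, where *Sema3c*, *Unc5b*, *Plxnd1*, *Efna4*, *Sema3f*, *Plxnb1* and *Efnb1* rose and *Nrp1*, *Robo1* and *Ephb4* fell. These 10 of 51 members tested are 19.6%, against 14.1% of all genes tested (7.63% higher, 6.44% lower). In all 10 the libraries did not overlap between treatments, as in 22 of the 51 members tested and 35.8% of all genes. Scaling by library totals only, which moved the median of all genes by -0.22, gave 3 higher and 8 lower. Only 3 of 51 members were called in GFP+ luminal cells (*Slit1* higher, *Nrp1* and *Ntn4* lower), where 5.96% of all genes tested were called (3.17% higher, 2.78% lower). At an unadjusted p under 0.05 there were 16 members in GFP+ luminal cells, against 29.9% of all genes, and 27 in tdTomato+ luminal cells, against 39.0%.

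The largest change among called members was in *Sema3c* (chromosome 5, 17574281 to 17730268). In untreated tdTomato+ luminal cells it measured 3.41, 4.20, 4.56 and 15.1 CPM in replicates 1 to 4, and after E+P 222, 171 and 206 CPM in replicates 1 to 3. Every E+P library thus lay far above the highest untreated library, and the log2 difference of 4.88 ± 0.46 (adjusted p = 2.7e-05) passed the threshold under every alternative tried. The GFP+ luminal cells of the same mice measured 15.9, 20.9, 17.1 and 23.1 CPM untreated and 62.7, 32.3 and 41.7 after E+P (1.24 ± 0.42, adjusted p = 0.067), which did not pass the test. The difference between the responses of the luminal populations was -3.64 ± 0.62 (GFP+ minus tdTomato+, adjusted p = 0.0051; -3.92 and 0.0019 with the mouse as a block). Without the block it missed the threshold when untreated replicate 1, 2 or 3 or any 1 of the E+P replicates was left out (adjusted p = 0.015 to 0.045). *Unc5d*, singled out after its values were seen, was at 0 in all 4 untreated tdTomato+ luminal libraries and at 57.6, 2.95 and 2.05 CPM after E+P, but was not called (adjusted p = 0.036). In stroma the values of *Sema3c* went the other way without passing the test: 128, 11.7, 83.1 and 34.0 CPM untreated against 6.95, 7.52 and 11.3 after E+P in tdTomato+ stroma, and 567, 486, 489 and 343 against 195, 179 and 274 in GFP+ stroma.

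*Nrp1*, the co-receptor of class 3 semaphorins (chromosome 8, 128358604 to 128503363), fell in both luminal populations. The tdTomato+ cells measured 7.03, 6.94, 6.65 and 12.8 CPM untreated and 1.20, 0.898 and 0.857 after E+P (-3.07 ± 0.32, adjusted p = 2.1e-05), a call kept under every alternative tried. The GFP+ cells measured 2.28, 1.51, 1.83 and 2.12 CPM untreated and 0.408, 0.485 and 0.541 after E+P (-2.0 ± 0.33, adjusted p = 0.0019), and here the call was lost without any 1 of the E+P replicates (0.012 to 0.019). The responses of the luminal populations did not differ past the threshold (difference 1.07 ± 0.45, adjusted p = 0.18). In the same tdTomato+ luminal cells *Plxnd1*, the plexin that *Sema3c* uses with neuropilins, measured 2.01, 0.365, 2.82 and 1.90 CPM untreated and 6.01, 7.95 and 5.19 after E+P (1.88 ± 0.46, adjusted p = 0.0079). That call was lost without untreated replicate 1 or 4 or any 1 of the E+P replicates (0.020 to 0.051). Both receptors stayed under 13 CPM in all luminal libraries, against stromal medians of 158 and 183 CPM.

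Netrins and their receptors moved as well. *Ntn4* (chromosome 10, 93640681 to 93747207) measured 56.4, 130, 40.0 and 16.9 CPM in untreated GFP+ luminal cells and 2.99, 6.04 and 7.04 after E+P (-3.49 ± 0.61, adjusted p = 0.0033). The call was lost without untreated replicate 1 or any 1 of the E+P replicates (0.012 to 0.032). *Ntn4* measured 23.4, 17.4, 23.1 and 11.5 CPM against 3.45, 3.93 and 3.04 in tdTomato+ luminal cells, which just missed the threshold (-2.40 ± 0.60, adjusted p = 0.011). Its libraries did not overlap between treatments in either population. In GFP+ luminal cells the same held for 13 of the 51 members tested and 27.6% of all genes, and in tdTomato+ luminal cells for 22 and 35.8%. *Ntn1* measured 262, 295, 197 and 307 CPM against 102, 119 and 133 in GFP+ luminal cells (-1.17 ± 0.39, adjusted p = 0.063) and 63.1, 20.6, 57.3 and 101 against 20.2, 25.1 and 15.2 in tdTomato+ luminal cells (-1.55 ± 0.40, adjusted p = 0.013), neither past the threshold. *Unc5b*, a netrin receptor, went in tdTomato+ luminal cells from 6.41, 15.7, 14.8 and 4.07 CPM to 85.3, 34.1 and 32.7 after E+P (2.35 ± 0.48, adjusted p = 0.0036; lost without untreated replicate 1 or E+P replicate 1, 0.017 to 0.021). *Neo1* went in opposite directions in the luminal populations: 54.7, 41.9, 55.4 and 48.4 CPM untreated and 70.6, 65.0 and 73.3 after E+P in GFP+ cells, and 55.7, 39.1, 48.8 and 49.9 against 35.5, 35.1 and 32.2 in tdTomato+ cells. Neither change passed its own test, whereas their difference did (0.94 ± 0.18, adjusted p = 0.0075; 0.0044 with the mouse as a block). Without the block it was lost when any mouse but untreated replicate 2 was left out (0.016 to 0.059).

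*Robo1* (chromosome 16, 72308306 to 73046095) fell in tdTomato+ luminal cells from 44.0, 48.6, 36.7 and 27.4 CPM to 11.6, 13.0 and 11.3 (-1.68 ± 0.29, adjusted p = 0.0011; 0.012 without E+P replicate 3). The GFP+ luminal cells measured 16.7, 6.45, 18.2 and 10.9 CPM untreated and 15.0, 19.1 and 16.9 after E+P. The tdTomato+ libraries thus lay above the GFP+ ones in untreated mice and below them after E+P. The responses differed by 2.05 ± 0.40 (adjusted p = 0.0085), but by the paired fit with the mouse as a block this missed the threshold (adjusted p = 0.015), as it did without untreated replicate 1 or 4 or any 1 of the E+P replicates (0.011 to 0.061). *Slit1*, a Slit found mainly in the nervous system, was called in GFP+ luminal cells at a very low level: 0.19, 0, 0.0571 and 0.0787 CPM untreated, all at or under the amount of 3 counts, and 0.816, 1.62 and 0.75 after E+P (adjusted p = 0.0076). This call was lost whichever single mouse was left out (0.012 to 0.063) and with the replicate number as a block (0.022).

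Of the semaphorin and plexin partners, *Sema3f* rose in tdTomato+ luminal cells from 25.5, 18.6, 15.0 and 36.4 to 65.4, 54.6 and 49.3 CPM (1.27 ± 0.26, adjusted p = 0.0034; lost without untreated replicate 1, 2 or 3 or E+P replicate 2, 0.011 to 0.018). *Plxnb1* rose from 73.7, 53.3, 75.4 and 102 to 182, 143 and 115 CPM (0.97 ± 0.19, adjusted p = 0.0018; lost without E+P replicate 1 or 2, 0.013 to 0.016). Its ligand *Sema4d* showed overlapping libraries, at 47.6, 41.9, 54.1 and 43.7 against 67.7, 47.9 and 44.7 CPM. Among ephrins, *Efna4* rose from 3.77, 3.23, 3.11 and 2.48 to 10.5, 8.85 and 10.1 CPM (1.67 ± 0.33, adjusted p = 0.0025; lost without untreated replicate 4 or E+P replicate 1 or 2, 0.010 to 0.013), with 10.5% of its exons overlapped by an antisense gene. *Efnb1* rose from 16.4, 18, 14.2 and 18 to 29.8, 23.0 and 24.7 CPM (0.66 ± 0.13, adjusted p = 0.0024; lost without E+P replicate 1 or 3, 0.010 to 0.021). *Ephb4*, the receptor of ephrin-B2, fell from 41.9, 27.3, 34.4 and 47.9 to 18.5, 25.8 and 19.7 CPM (-0.80 ± 0.19, adjusted p = 0.0061). The *Ephb4* call was lost without untreated replicate 1 or 4 or any 1 of the E+P replicates (0.010 to 0.043). With scaling by library totals, *Plxnd1*, *Efnb1*, *Sema3f* and *Plxnb1* missed the threshold (0.011 to 0.023).

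**Figure D4:**
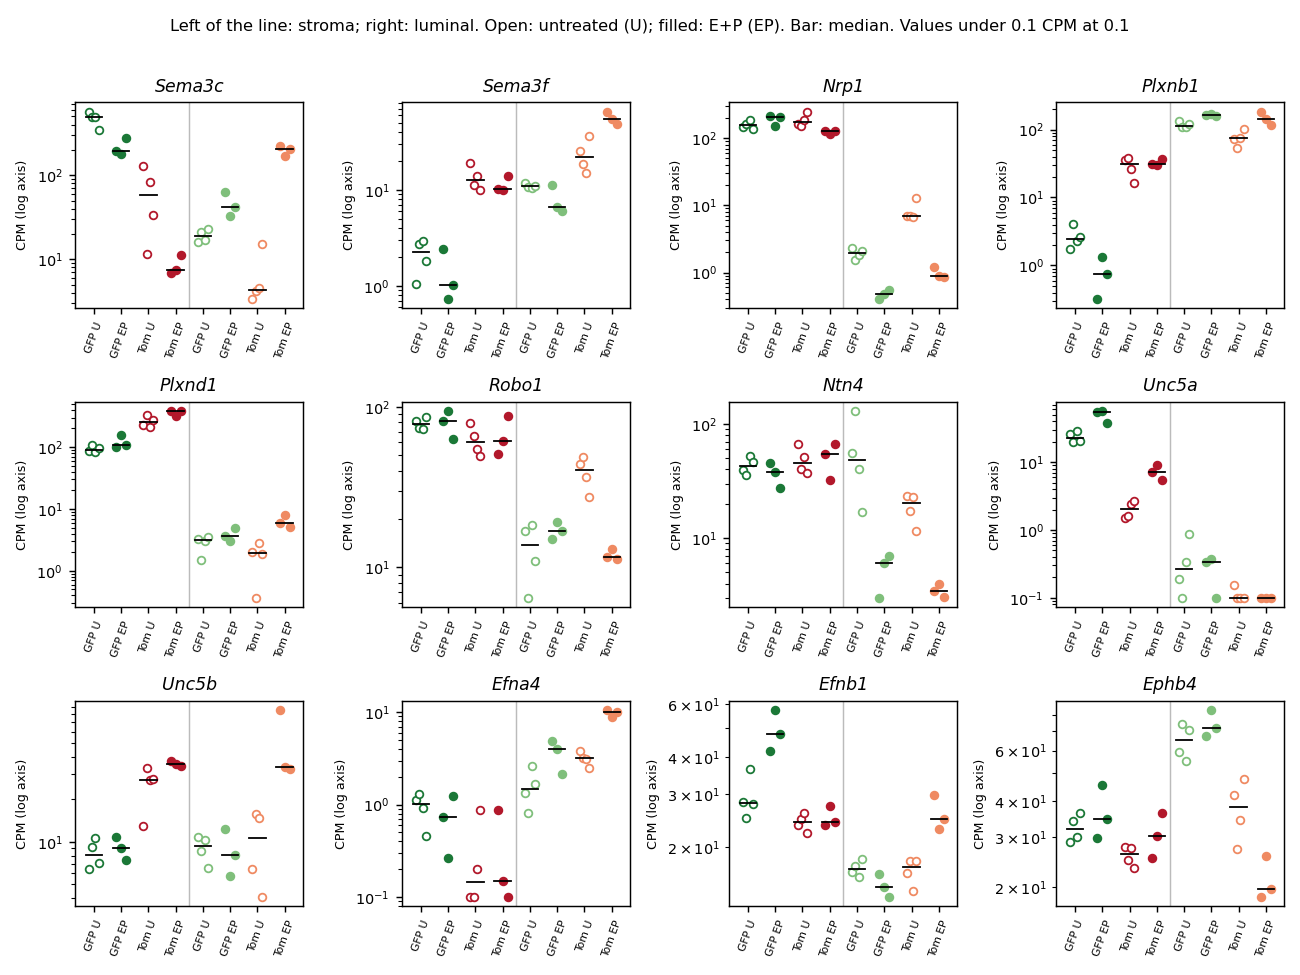
CPM on a log axis of 12 members in the 8 groups; open points are untreated mice (4), filled points E+P mice (3), bars are medians, and values under 0.1 are drawn at 0.1. In tdTomato+ luminal cells *Sema3c* moves from 3.41 to 15.1 CPM untreated up to 171 to 222 CPM after E+P, while *Nrp1* and *Robo1* move down. In both stromal populations the points of *Robo1* overlap between treatments, as do those of *Nrp1* in GFP+ stroma. In tdTomato+ stroma *Nrp1* lies at 154 to 247 CPM untreated and 117 to 130 CPM after E+P, a difference that was not called.

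Markers of luminal and basal cell types moved with treatment too. In tdTomato+ luminal cells 2 of 5 basal markers, *Trp63* and *Krt17*, rose (the list from 7.609 to 18.28 CPM in untreated to 35.4 to 62.54 CPM in E+P libraries), and in GFP+ luminal cells the basal list went from 41.59 to 85.61 CPM to 116.6 to 131.8 CPM with 0 of 5 called. The hormone-sensing list of tdTomato+ luminal cells went from 3421 to 5047 CPM in untreated libraries to 1697 to 2769 after E+P and the progenitor list from 170.3 to 663.3 to 95.11 to 161.2 CPM. The hormone-sensing list of GFP+ luminal cells went from 258.2 to 1693 CPM to 145.7 to 251.8 CPM, with 3 of 5 called lower. Their progenitor list went from 1406 to 2277 CPM to 1011 to 1194 CPM, with 0 of 4 called. In tdTomato+ luminal cells 1 of 5 hormone-sensing and 2 of 4 progenitor markers were called lower. The part of such shifts in the changes of guidance genes was not tested.

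**Figure D5:**
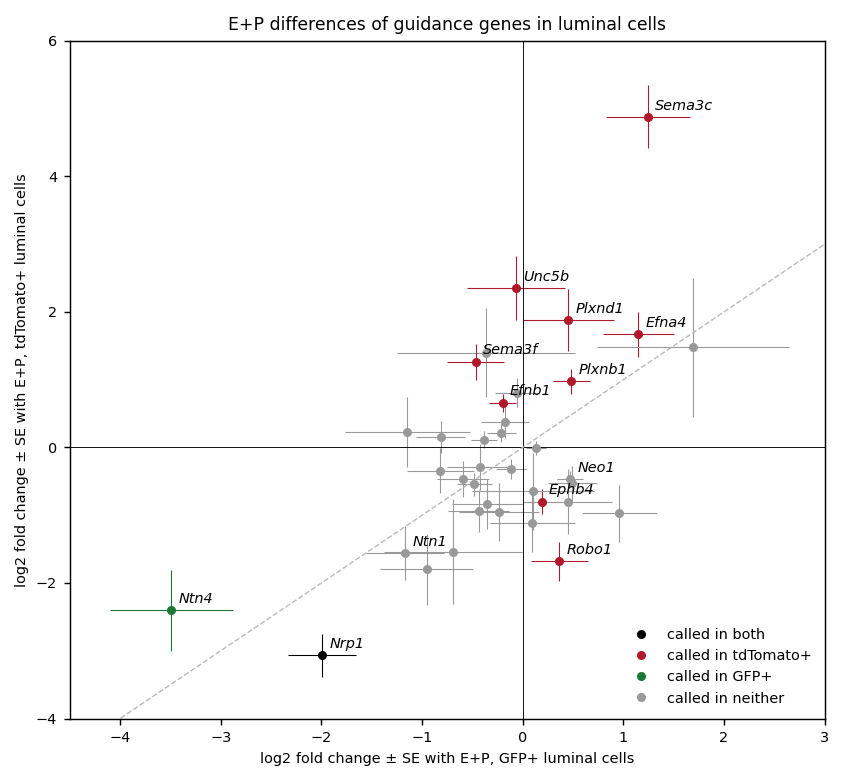
Log2 difference ± SE between E+P and untreated mice in GFP+ luminal cells (horizontal) and tdTomato+ luminal cells (vertical) for 38 members with a mean of at least 5 CPM in a luminal group. *Sema3c* stands at 1.24 and 4.88, *Nrp1* lies low in both directions (-2.0 and -3.07), as does *Ntn4* (-3.49 and -2.40), and *Robo1* has opposite signs (0.36 and -1.68).

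The sequences before the RefSeq start sites of *Sema3c*, *Nrp1*, *Ntn4* and *Plxnd1* are shown because these ligands and receptors carry the hormone results. Each line gives the 250 bases before the RefSeq start site on the gene's strand in GRCm38.p6. They are chr5:17574566-17574815 (+) for *Sema3c*, chr8:128358823-128359072 (+) for *Nrp1*, chr10:93640799-93641048 (+) for *Ntn4* and chr6:115995006-115995255 (-) for *Plxnd1*, and none of these bases lies in an annotated exon. The windows of *Sema3c*, *Nrp1* and *Ntn4* fall inside the gene spans given above, since GENCODE sets the gene start before the RefSeq start site used here. Capitals mark AGAACA, a hexamer bound by progesterone and glucocorticoid receptors.
Sema3c: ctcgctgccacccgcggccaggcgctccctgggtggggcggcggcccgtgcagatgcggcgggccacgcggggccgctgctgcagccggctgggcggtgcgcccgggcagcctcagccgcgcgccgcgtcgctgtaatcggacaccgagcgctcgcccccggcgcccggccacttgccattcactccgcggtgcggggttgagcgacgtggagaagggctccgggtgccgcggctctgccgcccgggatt
Nrp1: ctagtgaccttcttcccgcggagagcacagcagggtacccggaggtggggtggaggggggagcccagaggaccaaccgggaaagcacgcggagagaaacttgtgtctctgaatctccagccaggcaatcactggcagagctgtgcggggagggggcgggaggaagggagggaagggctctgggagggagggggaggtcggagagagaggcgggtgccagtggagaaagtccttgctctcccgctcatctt
Ntn4: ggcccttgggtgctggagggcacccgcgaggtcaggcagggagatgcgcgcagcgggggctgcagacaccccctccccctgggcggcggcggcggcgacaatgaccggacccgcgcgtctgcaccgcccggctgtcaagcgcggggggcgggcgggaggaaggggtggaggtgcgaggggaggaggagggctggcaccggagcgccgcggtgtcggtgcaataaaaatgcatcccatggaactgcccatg
Plxnd1: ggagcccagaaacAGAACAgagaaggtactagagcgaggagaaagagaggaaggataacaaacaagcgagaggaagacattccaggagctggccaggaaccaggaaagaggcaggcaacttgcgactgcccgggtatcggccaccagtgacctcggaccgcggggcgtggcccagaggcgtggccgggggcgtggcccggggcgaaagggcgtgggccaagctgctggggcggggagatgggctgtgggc
The *Sema3c* window was 78.4% G or C with 39 CpG dinucleotides, that of *Ntn4* 73.2% with 26, that of *Plxnd1* 64.8% with 16 and that of *Nrp1* 64.4% with 11. The median over the same 250 bases of 32851 RefSeq promoters was 52.4% with 6 CpG, and over 74 promoters of 58 members 64.4% with 16. AGAACA, searched on both strands from 250 bases before to 50 after the start site, was found in 1 of the 11 members with a window among the 13 called for E+P in any population (*Plxnd1*), against 19% of all windows. The palindromic oestrogen response element (GGTCA, 3 bases of any kind, then TGACC) was found in 0 of 11, against 0.07% of all windows. A match describes letters only, and its absence from these windows says nothing about the receptors.

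In the stroma, few members responded to E+P. In GFP+ stroma 0 of 60 members tested were called by edgeR, where 0.231% of all genes were. At an unadjusted p under 0.05 there were 15 members (25%), against 8.04% of all genes, and DESeq2 called 5 and limma-voom 1. The 3 members with the lowest p were *Unc5a* (25.8, 20.1, 28.5 and 20.4 CPM untreated and 54.2, 56.8 and 38.1 after E+P, 1.07 ± 0.23, adjusted p = 0.034), *Efnb1* (28.3, 25, 36.5 and 27.8 against 41.8, 57.4 and 47.6, 0.74 ± 0.16, adjusted p = 0.040) and *Plxnb1* (1.74, 4.03, 2.26 and 2.66 against 0.325, 1.32 and 0.739, -1.67 ± 0.41, adjusted p = 0.079). None of the 3 overlapped between treatments, as in 17 of the 60 members tested and 13% of all genes. The Schwann cell and glia list (7 genes) ran from 34.83 to 38.85 CPM in untreated and from 251.1 to 266.9 CPM, mostly *Ngfr*, in E+P libraries of this population, and its part in these values was not tested.

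In tdTomato+ stroma 1 of 60 members was called, where 0.124% of all genes were, and 18 had an unadjusted p under 0.05 (15.6% of all genes). *Unc5a* measured 1.52, 1.63, 2.39 and 2.72 CPM untreated and 7.15, 9.0 and 5.45 after E+P (1.80 ± 0.26, adjusted p = 0.0054). Its call was lost without untreated replicate 1 or 3 or any 1 of the E+P replicates (0.011 to 0.068) and without both mice rich in epithelial RNA (0.021). In both stromal populations, which came from the same mice, all 3 E+P libraries thus lay above every untreated library for *Unc5a*. Libraries of tdTomato+ stroma did not overlap between treatments for 14 of the 60 members tested and 10.7% of all genes. *Unc5a* passed the threshold only in tdTomato+ stroma, and its responses in the 2 populations did not differ past the threshold (-0.72 ± 0.34, adjusted p = 0.48). Next by p were *Epha3* (36.6, 23.5, 49.9 and 39.2 CPM untreated and 12.1, 12.5 and 20.7 after E+P, -1.31 ± 0.27, adjusted p = 0.035) and *Ntn1* (39.2, 23.8, 41.2 and 22.1 against 7.77, 8.06 and 18.6, -1.46 ± 0.31, adjusted p = 0.042). The skeletal muscle list ran from 1374 to 6564 CPM in untreated and from 4175 to 13060 CPM in E+P libraries of this population. The fibroblast list ran from 1142 to 3889 CPM in untreated and from 918.5 to 1344 CPM in E+P libraries. The luminal list ran from 20.13 to 518.3 CPM and from 3.92 to 42.09 CPM. The part of these lists in the values of the guidance genes was not tested. No member responded differently between the stromal populations by edgeR (0 of 60; 0.0450% of all genes), with 17 at an unadjusted p under 0.05 (10.4% of all genes), 1 call by DESeq2 and 0 by limma-voom. The lowest p were those of *Sema6a* (-1.0 ± 0.21, adjusted p = 0.053), *Nrp1* (0.86 ± 0.24, 0.18) and *Plxnb1* (-1.85 ± 0.51, 0.18).

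Between the luminal populations 3 members had responses that differed, *Sema3c*, *Neo1* and *Robo1* as given above, of 51 tested, where 2.27% of all genes were called (0.786% higher, 1.49% lower). With the mouse as a block 6 were called: *Sema3c* and *Neo1* again, with *Unc5b*, *Ephb2*, *Sema3f* and *Sema3b* in addition.

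Beyond the ligands and receptors, a list of 55 intracellular effectors (among them MICALs, collapsin response mediators, kinases and adaptors) was examined. Of 52 effectors tested 27 were higher in stroma and 18 lower against luminal cells (all genes: 63.5% called). Between GFP+ and tdTomato+ cells 19 were higher and 15 lower of 52 in stroma (all genes: 42.0%), and 19 higher and 10 lower of 49 in luminal cells (all genes: 34.7%). The 7 of 49 called after E+P in tdTomato+ luminal cells are near the 14.1% of all genes. After E+P in tdTomato+ luminal cells *Enah* (log2 difference 1.51), an actin polymerisation factor, and *Mical3* (1.32) rose, and *Mical1* (-1.43), *Arhgef12* (-0.82), which binds B-type plexins, *Vav2* (-0.75), *Srgap2* (-0.71), a Slit-Robo GTPase-activating protein, and *Arhgap39* (-0.50) fell. *Pak3* (1.66) rose in GFP+ luminal cells (1 of 49, with 5.96% of all genes called), and in neither stromal population was an effector called. A list of 25 co-receptors and modifiers had 17 of 24 tested higher in stroma and 6 lower (all genes: 63.5% called). In tdTomato+ luminal cells after E+P, 5 of 20 tested were called, against 14.1% of all genes. *Ret* (3.33), *L1cam* (1.29), *Sdc1* (0.91) and *Itgb1* (0.54) rose and *Met* (-1.47), the HGF receptor that associates with B-type plexins, fell. *Mmp14* (-0.93) fell in GFP+ luminal cells, 1 of 20 tested, with 5.96% of all genes called.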

How the data were processed

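The authors prepared stranded total RNA libraries from 2 ng of RNA per sorted population, aligned the reads with STAR 2.5.2a to GRCm38 p5 and deposited raw counts per gene. The strand setting of the counting is not given in the sources used here, so antisense overlaps stay uncertain. Ensembl identifiers were matched to GENCODE M21 (50376 matched, 224 not). Counts were tested in R 4.3.3 with edgeR 4.0.16: TMM scaling, filterByExpr by group, robust quasi-likelihood F-tests and Benjamini-Hochberg adjustment over all genes tested, with a threshold of 0.01. Stroma and luminal cells were compared in a fit of all 28 libraries, the other comparisons within a lineage (14 libraries, 4 groups). Log2 CPM values for correlations use a prior count of 2, and log2 differences use the default prior count of edgeR's fits. The SE of a log2 difference is its size divided by the square root of F. The scripts were tested on simulated data. CPM values are TMM-scaled.

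The members and lists were chosen with earlier results of these data known. Named were, per direction, up to 10 called members with the largest differences and at least 5 CPM in a population comparison, every member called for E+P or an interaction (where fewer than 3 were called, the 3 with the lowest p), the member with the highest level of each family in each lineage, and known partners.

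Populations of 1 mouse are paired: their libraries deviated together (mean r 0.0421 to 0.154, against -0.0593 to -0.0163 for different mice). Alternatives were DESeq2 size factors, scaling by library totals, DESeq2 1.42.0, limma-voom (limma 3.58.1), no low-count filter, a threshold of 0.05, a block for the mouse (populations) or for the replicate number (E+P), other sets of samples in the fit and leaving out each mouse.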

Additional observations from a re-analysis of the deposited data

Results flagged for a closer look

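In untreated groups of 4 libraries, 11 of 140 tests of members with at least 5 CPM found 1 library standing apart from the other 3 by Dixon's criterion, where chance alone gives about 7. In GFP+ luminal cells replicate 2 stood above the others for *Epha7* (49.76 CPM against 31.09 to 32.64), *Ephb6* (30.22 against 14.52 to 16.05) and *Sema5a* (31.83 against 9.675 to 12.69), replicate 4 for *Plxna1* (94 against 56.2 to 62.57) and replicate 3 for *Sema4c* (102.6 against 32.27 to 42.08). In tdTomato+ luminal cells replicate 4 stood above the others for *Nrp1* (12.8 against 6.654 to 7.025 CPM) and *Sema3c* (15.05 against 3.409 to 4.556), and replicate 2 below them for *Sema6a* (3.348 against 10.52 to 11.93). In GFP+ stroma replicate 3 was low for *Epha4* (38.91 against 46.81 to 47.79 CPM) and replicate 2 high for *Slit3* (1140 against 827.4 to 865.7). In tdTomato+ stroma replicate 2 was high for *Efnb2* (64.7 against 31.3 to 34.07 CPM).

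The response to E+P differed between GFP+ and tdTomato+ luminal cells by the interaction test for *Sema3c* (-3.64), *Neo1* (0.94) and *Robo1* (2.05, lost with the mouse as a block), on the log2 scale.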

How the results depend on the processing

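Of 137 values of named members, 102 kept their direction and their side of the threshold under every alternative, and none reversed. The counts of members called between populations stayed within 1.5 times the reported ones, with 47 to 49, 35 to 38 and 18 to 25 called when single mice were left out of the comparisons of stroma with luminal cells, of the stromal populations and of the luminal populations. The E+P counts depended on the tool and on single mice. In GFP+ stroma (0 reported) 8 were called with no low-count filter, 1 by limma-voom, 5 by DESeq2, 4 with only the groups compared in the fit and 2 at a threshold of 0.05. In tdTomato+ stroma (1 reported) these were 10, 0, 7, 0 and 4, with 2 called without both mice rich in epithelial RNA and 0 to 3 when leaving out single mice. In GFP+ luminal cells (3 reported) they were 1, 1, 5, 1 and 7, and 0 to 4 leaving out single mice. In tdTomato+ luminal cells (10 reported) 16 were called by DESeq2, 5 with only the groups compared, 19 at 0.05 and 5 to 14 leaving out single mice. The interaction in stroma (0 reported) gave 8 with no filter and 1 by DESeq2, and that in luminal cells (3 reported) 1 with no filter, 8 by DESeq2, 7 at 0.05 and 0 to 3 leaving out single mice. The cause of these changes was not tested.

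With the mouse as a block, 48, 37 and 28 members were called in the population comparisons, 0 in the stromal and 6 in the luminal interaction. E+P and untreated mice share only a number (mean r of same-numbered libraries -0.0431 to 0.0136, and in each population at most 1 of 3 E+P libraries correlated best with its own number). With that number as a block, 0, 1, 5 and 14 were called in GFP+ stroma, tdTomato+ stroma, GFP+ luminal and tdTomato+ luminal cells. At this depth 3 counts are 0.116 to 0.302 CPM, and differences below that were not detectable. With 3 E+P mice, many E+P calls were lost when 1 mouse was left out.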
